A study of Mus musculus with 9 samples.

Results

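miR-221 and miR-222 are a pair of miRNAs that are made from neighbouring hairpins of the X chromosome. Each hairpin yields a 3p arm, the guide that is usually kept by Argonaute, and a 5p arm, the passenger that is usually discarded. All 4 arms (mmu-miR-221-3p, mmu-miR-221-5p, mmu-miR-222-3p and mmu-miR-222-5p, below without the species prefix) were found by exact name among the 548 mature miRNAs (1825 small RNAs) of an Ago2 table and the 549 mature miRNAs (1939 small RNAs) of an Sfpq table, 522 of which are in both. The tables come from 9 small RNA libraries of a mouse cell line without any treatment in the labels, with 3 of input extract, 3 of Ago2 RNA-IP (antibody clone 2D4) and 3 of Sfpq RNA-IP (antibodies Ab38148 and B92). In an RNA-IP, the RNA that is recovered with an antibody against a protein is sequenced and compared with the RNA of the extract. No library with a control antibody is among them, so RNA carried along by any antibody or by the beads cannot be told apart from RNA associated with Ago2 or Sfpq. All libraries are of bulk extracts, in which fewer cells with a miRNA and less of it per cell cannot be told apart.

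The labels name RAW 264.7 cells, a macrophage-like line, but also call the source a stem cell, and the design text names P19 cells, an embryonal carcinoma line. The paper itself gives RAW 264.7 as the cells of its Ago2 and Sfpq RNA-IPs with small RNA sequencing. All 7 macrophage and myeloid markers on the list were present in the input of the Ago2 table. They summed to a signal of 374140, most of it from miR-21a-5p with 265164, so the sum mainly reflects that miRNA. The others were miR-146a-5p with 52710, miR-146b-5p with 38144, miR-155-5p with 12866, miR-142-5p with 4307 and miR-142-3p with 846. The lowest was miR-223-3p, a marker of myeloid cells, with 103. Of the 13 pluripotent and embryonal carcinoma markers, miR-291a-5p and miR-302d-3p were in the tables, both at 0 in the input. The others were looked up by name and had no entry in the tables used here. The endothelial markers miR-126-3p and miR-126-5p had 9.48 and 28.8 in the same input, the neuronal miR-9-5p had 93.6 and the 3 muscle markers summed to 0.892. The neuronal miR-124-3p and the liver marker miR-122-5p had no entry in the tables used here.

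Ago2 is the Argonaute protein that holds the guide arm of a miRNA and brings it to target mRNAs, whereas Sfpq binds RNA in the nucleus and is a component of paraspeckles. Of the arms of a hairpin, typically the guide is loaded and the passenger is degraded. miR-221-3p and miR-222-3p are known to repress the mRNAs of the cell cycle inhibitor Cdkn1b and of the receptor tyrosine kinase Kit, and are abundant in many proliferating cells.

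The sequences are shown to compare the arms, because guides with a shared seed address the same target sites. They are those of RefSeq on GRCm38.p6, which had 3 of the 4 arms, all but miR-222-5p. Capitals mark bases 2 to 8 from the 5′ end, the seed that pairs with a target.
miR-221-3p: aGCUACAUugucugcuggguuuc
miR-222-3p: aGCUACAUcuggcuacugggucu
miR-221-5p: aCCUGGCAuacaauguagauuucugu
The first 8 bases of the 3p arms are identical, and both seeds match the target letters AUGUAGC. After these bases the guides agree at 3 further positions, 11 of 23 in an ungapped comparison. That comparison misses the stretch CUGGGU, which both guides hold at shifted positions. miR-221-5p has another seed, shared with 0 other mature miRNAs of the 1679 names in the RefSeq table. miR-1928 has the same seed as the 3p arms and begins with the same 10 bases as miR-221-3p, and had no entry in the tables used here.

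The hairpins lie on the minus strand at chrX:19146294-19146388 for miR-221 and chrX:19146893-19146971 for miR-222 (GRCm38, the build that the submitters' notes call mm10), with 504 bases between them. They are shown to place the arms, with the annotated mature arms in capitals.
miR-221 hairpin: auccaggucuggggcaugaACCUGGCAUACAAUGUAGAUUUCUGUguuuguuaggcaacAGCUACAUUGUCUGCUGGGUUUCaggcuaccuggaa
miR-222 hairpin: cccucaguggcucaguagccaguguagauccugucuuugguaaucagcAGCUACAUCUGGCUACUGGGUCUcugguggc
No other gene of GENCODE M21 or RefSeq overlaps the cluster, which makes the hairpins intergenic in these annotations. The nearest gene in both is Gm14636, a non-coding gene on the same strand in GENCODE M21, which lies 10009 bases away there and 9499 bases away in RefSeq.

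Each table gives the authors' pooled signal for the 3 libraries of a group, so the values carry no spread between libraries, no test was made, and differences are described by their size. The intervals below are 95% intervals that cover counting error only. They were derived from the steps between the lowest values of each column, which show how much signal a single read is worth. For miR-222-5p, the lowest of the 4 arms, the signal stands for 739 to 1174 reads over the 3 libraries with Ago2 and for 692 to 919 with Sfpq, and that of miR-221-3p for at least 993930 reads in every group. The spread between cultures or precipitations is unknown.

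In the extract both guides were among the most abundant miRNAs. miR-221-3p had an input signal of 513446, or 8.32% of the signal of all mature miRNAs, and ranked 4 of 548, between let-7i-5p (584611) and let-7f-5p (437044). miR-222-3p had 272905 and 4.42%, and ranked 8, between let-7b-5p (326610) and miR-21a-5p (265164). These are levels of the Ago2 table. Together the guides held 12.7% of the mature miRNA signal. The passengers were far lower, with an input signal of 1441.65 for miR-221-5p (rank 93) and 568 for miR-222-5p (rank 129). Whether neighbours in this order differ beyond the spread between libraries is unknown, and miR-301a-3p above miR-221-5p, with 1452.17, is within its counting error.

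The first comparison asked how the arms were distributed between Ago2 and the extract. With Ago2 miR-221-3p had a signal of 775019 and in the input 513446. miR-222-3p had 259432 with Ago2 and 272905 in the input. Thus the former was 1.51-fold higher than in the input (log2 ratio 0.59, counting interval 0.59 to 0.60), while the latter was nearly level (-0.07, -0.08 to -0.07). miR-221-5p had 699 with Ago2 and 1441.65 in the input, a log2 ratio of -1.04 (-1.13 to -0.96). miR-222-5p had 241 and 568, a log2 ratio of -1.24 (-1.37 to -1.10). In this table both passengers were therefore more than 2-fold lower than in the input and neither guide was, although the counting interval of miR-221-5p reaches across the 2-fold line.

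These ratios rest on the authors' scaling, in which the median of the 302 mature miRNAs at a mean signal of at least 20 was 0.49 with Ago2. Against this median miR-221-3p lay close to the middle, higher than 56.0% of the miRNAs, and miR-222-3p was higher than 26.5%. The passengers were near the lower end, above 10.3% (miR-221-5p) and 8.94% (miR-222-5p). As a share of mature miRNA signal miR-221-3p went from 8.32% (input) to 8.07% (Ago2), so its direction turns with the scaling, and miR-222-3p went from 4.42% to 2.70%. By signal 2 of the 4 arms, both passengers, were 2-fold or more lower, compared with 11.3% of the mature miRNAs, and 0 of 4 were 2-fold or more higher, compared with 23.8%. Those background counts are 34 lower and 72 higher, and by share of miRNA signal they turn to 60 lower and 19 higher.

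**Figure D1:**
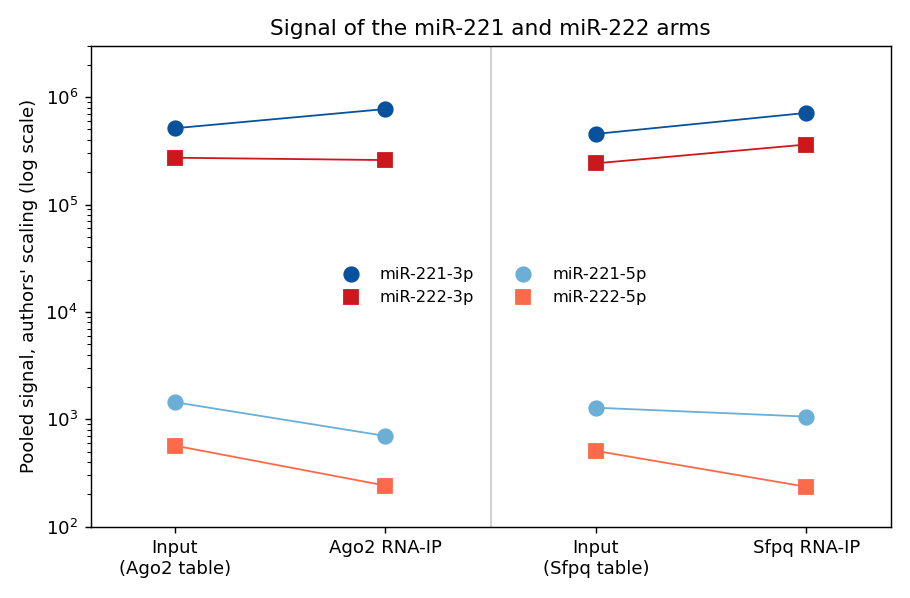
Pooled signal of the 4 arms (vertical axis, log scale, authors' scaling) in the input and the RNA-IP of each table (horizontal axis), with lines joining the input to the RNA-IP of the same table and no error bars because each point is 1 pooled value. The 3p arms lie between 241900 and 775019 in every column and the 5p arms between 235 and 1441.65, and between input and Ago2 RNA-IP the miR-221-3p line goes up by this scaling while its share of miRNA signal goes from 8.32% to 8.07%.

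The same was asked of Sfpq. With Sfpq miR-221-3p had a signal of 713449, and 454505 in the input of that table, which the authors scaled separately. miR-222-3p had 362167 with Sfpq and 241900 in the input. Here the guides had nearly the same log2 ratio, 0.65 for miR-221-3p and 0.58 for miR-222-3p (counting intervals 0.65 to 0.65 and 0.58 to 0.59), above 61.3% and 55.6% of 297 mature miRNAs with a median of 0.44. By share of mature miRNA signal both were instead lower than in the input, with 7.42% against 8.32% for miR-221-3p and 3.77% against 4.43% for miR-222-3p. In rank the guides were 5 and 8 of 549 with Sfpq, and 4 and 9 of 548 with Ago2.

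The passengers differed from each other with Sfpq. miR-221-5p had 1058.77 with Sfpq and 1280.99 in the input, a log2 ratio of -0.27 (-0.35 to -0.20) that exceeded 27.3% of the miRNAs. miR-222-5p had 235 and 508, a log2 ratio of -1.11 (-1.25 to -0.98) that exceeded 13.1%. By signal 1 of the 4 arms, miR-222-5p, was 2-fold or more lower in the Sfpq RNA-IP, compared with 16.2% of mature miRNAs, and 0 of 4 were 2-fold or more higher, compared with 23.6%. By share of miRNA signal miR-221-5p passed the 2-fold line too, at a log2 ratio of -1.09, and the background turned from 70 higher and 48 lower to 20 higher and 84 lower.

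**Figure D2:**
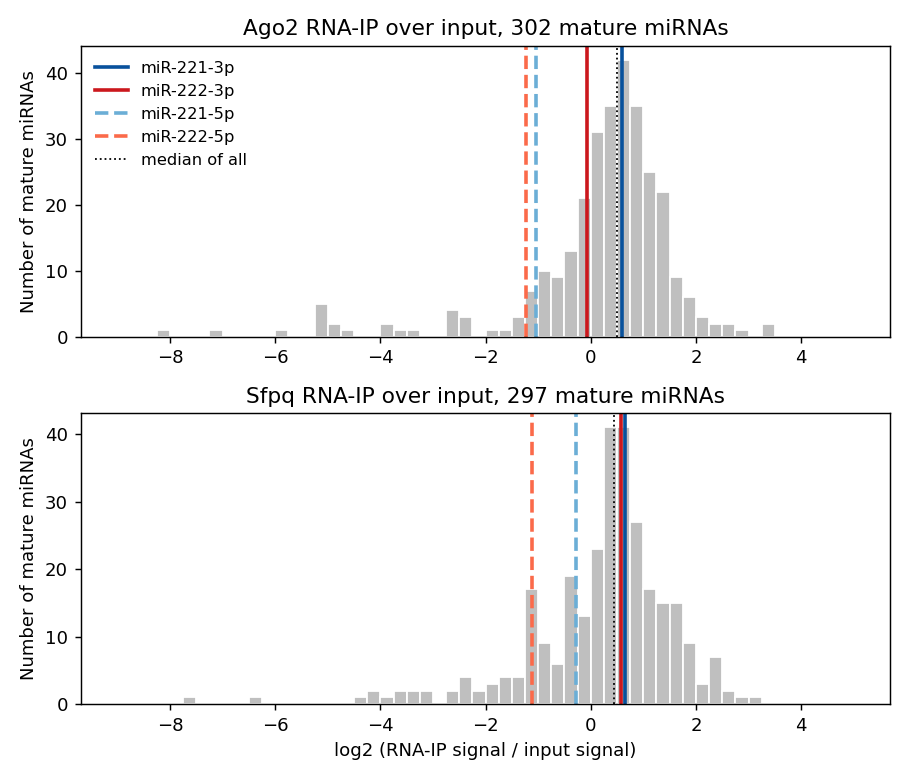
Number of mature miRNAs (vertical axis) by log2 ratio of RNA-IP to input signal (horizontal axis) at a mean signal of at least 20, for Ago2 (302 miRNAs, above) and Sfpq (297, below), with solid lines for the 3p arms, dashed lines for the 5p arms and a dotted line for the median. The 5p arms lie at -1.04 and -1.24 with Ago2 and at -0.27 and -1.11 with Sfpq, left of the medians of 0.49 and 0.44, and miR-222-3p lies left of the median with Ago2 (-0.07) and right of it with Sfpq (0.58).

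To set the RNA-IPs against each other, the log2 ratio to input with Ago2 was subtracted from that with Sfpq. Both ratios use the same input libraries. miR-221-3p was almost level, at 0.06, whereas miR-222-3p was higher with Sfpq by 0.66 (1.57-fold), above 82.0% of 289 mature miRNAs whose median was 0.01. For the passengers it was the other way round. miR-221-5p was higher with Sfpq by 0.77 (1.70-fold), above 86.2% of the miRNAs, and miR-222-5p was at 0.12, with a counting interval of -0.03 to 0.27 that includes 0. None of the 4 arms reached 2-fold in either direction, compared with 8.30% of miRNAs higher and 8.30% lower. The values of miR-221-3p and miR-222-5p turn to -0.12 and -0.05 by share of mature miRNA signal, while miR-222-3p and miR-221-5p remain above 0, at 0.48 and 0.59.

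A ratio of arms within a group does not depend on how groups were scaled to each other, and measures how far the guide outweighs the passenger. In the input the 3p arm of miR-221 had 356 times the signal of its 5p arm (counting interval 343 to 370), and that of miR-222 had 480 times (453 to 510). In the Ago2 RNA-IP the ratios were 1109 (1063 to 1157) for miR-221 and 1076 (1001 to 1156) for miR-222. The hairpins thus differed in the input by more than counting error, and in the Ago2 RNA-IP their intervals overlapped. With Sfpq the arm ratio of miR-221 was 674 (651 to 698), between the other groups, and that of miR-222 was 1542 (1431 to 1661), above both. The arm ratio was therefore higher in both RNA-IPs than in the input for both hairpins, by 3.11-fold and 1.90-fold for miR-221 and by 2.24-fold and 3.24-fold for miR-222 with Ago2 and Sfpq.

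**Figure D3:**
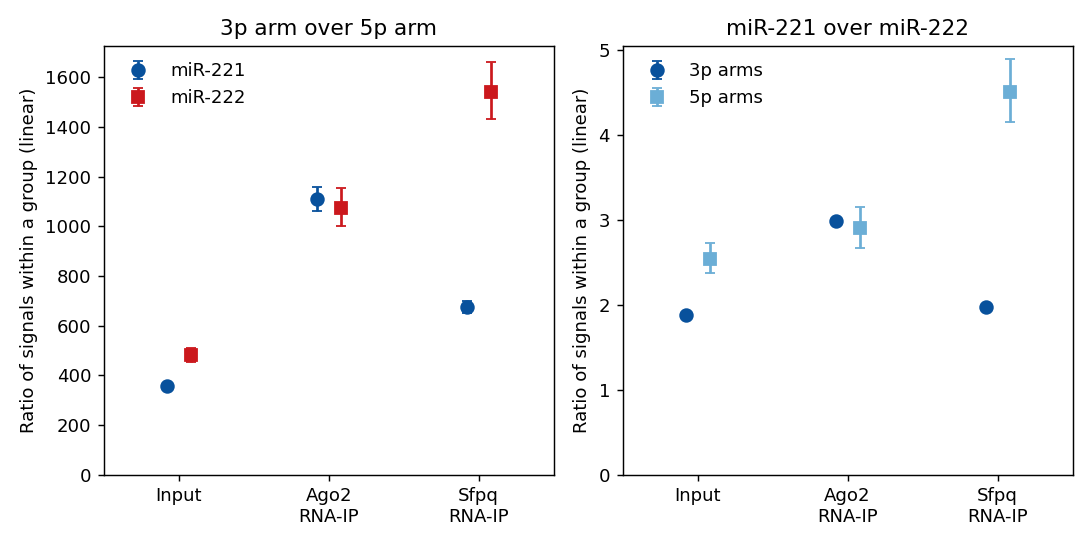
Ratio of signals within a group (vertical axes, linear, from 0) in input, Ago2 RNA-IP and Sfpq RNA-IP (horizontal axes), for the 3p arm over the 5p arm of each hairpin (left) and miR-221 over miR-222 for each arm (right), where bars are 95% counting intervals. The arm ratios of miR-221 and miR-222 are 356 and 480 (input), 1109 and 1076 (Ago2) and 674 and 1542 (Sfpq), and miR-221-3p over miR-222-3p is 2.99 with Ago2, 1.88 in the input and 1.97 with Sfpq.

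Other hairpins were used to read these values. Both arms passed a mean signal of 20 in 73 hairpins with Ago2 and in 69 with Sfpq. The arm that was higher in the input outweighed the other by a median log2 ratio of 2.78 (input) and of 3.81 (Ago2), and this ratio was higher with Ago2 than before precipitation in 53 of 73 hairpins (72.6%). With Sfpq it was higher in 47 of 69 (68.1%). In the input the arms of miR-222 ranked 9 and those of miR-221 ranked 11 among the 73 in their imbalance. By the size of the shift towards the higher arm they ranked 22 and 11 of 73 with Ago2, and 16 and 29 of 69 with Sfpq. The shift of both hairpins is thus in the direction of most hairpins, and with Ago2 28 of the 73 (38.4%) moved by 2-fold or more towards the higher arm and 11 towards the lower arm. With Sfpq 27 of the 69 (39.1%) moved that far towards the higher arm and 9 towards the lower arm.

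The passengers were also set against the lower arms of these hairpins. With Ago2 the lower arms had a median log2 ratio to input of 0.10, and 11 of 73 were 2-fold or more lower (15.1%), among them miR-221-5p and miR-222-5p. Only 9 and 7 lower arms had a ratio under that of miR-221-5p and miR-222-5p. With Sfpq the lower arms had a median of -0.10 and 19 of 69 were 2-fold or more lower (27.5%), 14 lay under miR-222-5p, and 32 lay under miR-221-5p, near the middle. The higher arms had medians of 0.66 with Ago2 and 0.61 with Sfpq, and 33 of 73 and 35 of 69 lay under miR-221-3p. Under miR-222-3p were 7 of 73 higher arms with Ago2 but 31 of 69 with Sfpq.

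**Figure D4:**
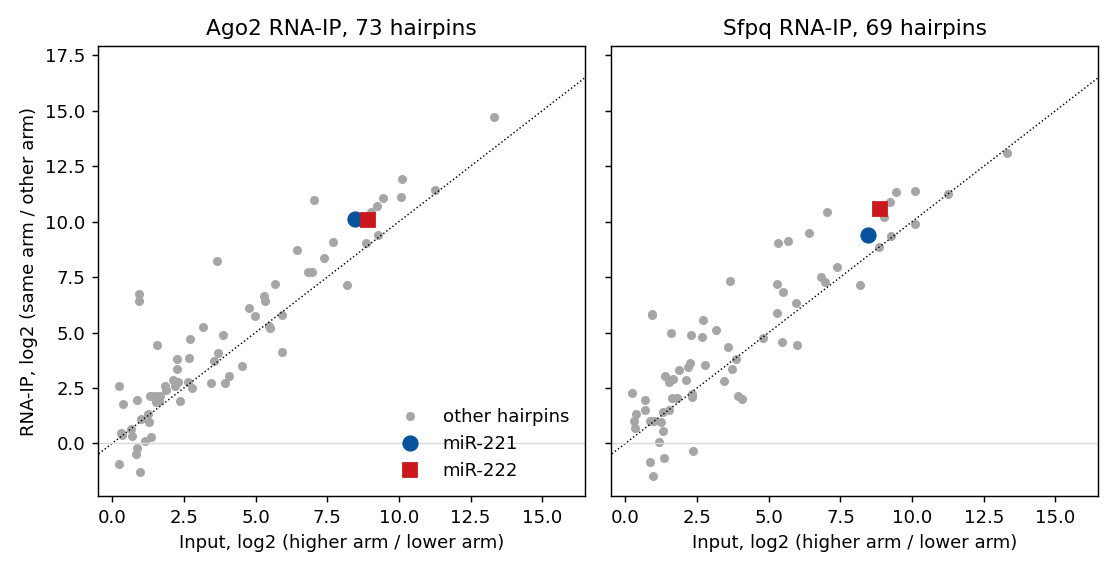
Log2 ratio of the arm that was higher in the input to the other arm, in the input (horizontal axes) and in the RNA-IP (vertical axes), for 73 hairpins with Ago2 (left) and 69 with Sfpq (right), where each point is 1 hairpin and the dotted line marks equal ratios. miR-221 and miR-222 lie above the line in both panels, at 10.11 and 10.07 with Ago2 and at 9.40 and 10.59 with Sfpq, against 8.48 and 8.91 in the input of the Ago2 table.

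Although the hairpins are neighbours and their guides share a seed, the guides were not in a constant proportion. miR-221-3p had 1.88 times the signal of miR-222-3p in the input (counting interval 1.88 to 1.89), 2.99 times with Ago2 (2.98 to 2.99) and 1.97 times with Sfpq (1.97 to 1.97). miR-221-5p had 2.54 times the signal of miR-222-5p in the input (2.37 to 2.72), 2.90 times with Ago2 (2.67 to 3.15) and 4.51 times with Sfpq (4.15 to 4.89). The guides were thus furthest apart with Ago2 and the passengers with Sfpq.

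For scale, pairs of mature miRNAs that share a seed were compared, a comparison chosen after the values of the guides were seen. With Ago2 the guides differed in log2 ratio to input by 0.67, more than 81 of 109 same-seed pairs (median 0.37). With Sfpq they differed by 0.07, less than 100 of 112 pairs (median 0.39). In the difference between Sfpq and Ago2 they were 0.60 apart, more than 93 of 108 pairs (median 0.23). These totals include the pair itself, and many pairs share a miRNA and are not independent. Pairs of higher arms from hairpins within 10000 bases of each other were few. The guides of miR-221 and miR-222 were further apart than 9 of 11 such pairs with Ago2 (median 0.27), closer than 10 of 12 with Sfpq (median 0.57), and further apart than 7 of 11 in Sfpq over Ago2, near the median of 0.55.

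The miRNAs most like each arm were those at the shortest distance in the log2 ratios with Ago2 and with Sfpq, among 288 others. That is a likeness over only 2 ratios that share the input. For miR-221-3p they were miR-125b-5p (0.62 and 0.62), miR-30d-3p (0.55 and 0.65) and miR-29a-3p (0.59 and 0.73). For miR-222-3p the nearest was miR-155-5p, an inflammatory miRNA of macrophages, with -0.10 and 0.61, followed by miR-219-1-3p (-0.04 and 0.56) and miR-190a-5p (-0.16 and 0.59). miR-155-5p had a signal of 12866 in the input, 12039 with Ago2 and 17451 with Sfpq. The nearest to miR-222-5p were miR-93-3p (-1.17 and -1.18), miR-702-5p (-1.05 and -1.03) and miR-677-5p (-1.43 and -1.04). Those nearest to miR-221-5p were miR-181b-1-3p (-1.12 and -0.33), miR-32-3p (-0.81 and -0.42) and miR-3096b-3p (-1.28 and -0.55), the last 2 at larger distances of 0.27 and 0.36. Some of these miRNAs had low signals. In the input, with Ago2 and with Sfpq, miR-181b-1-3p had 28.4, 13.1 and 20.3. In the same order miR-93-3p had 44.8, 19.9 and 17.7, and miR-219-1-3p had 41.7, 40.6 and 55.4. Counting intervals were not given for these distances, so the order of the nearest miRNAs may lie within counting error.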

How the data were processed

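The authors deposited 1 signal per small RNA and group in 2 comparison tables, pooled over 3 libraries. According to the study's methods, sequencing was on a SOLiD instrument, and mapping and normalisation were done with omiRas. The methods also name LifeScope, and the submitters' notes list cutadapt with mm10, so which step made the values is unknown. All 364 Ago2 RNA-IP values above 0 and under 2 were sums of whole multiples of 3 weights (tolerance 5.0e-04), as were those of the other columns, and the weights bound the reads behind a signal. The depth of single libraries is unknown. Signals summed to 9809388 (Ago2 RNA-IP) and 7299085 (its input), and to 9957738 (Sfpq RNA-IP) and 6449023 (its input). The deposited columns of ratios, p-values and false discovery rates and the 3 filtered lists hold the authors' own comparisons and were not used.

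Log2 ratios of signals were computed without a pseudocount in pandas 2.3.3 and NumPy 2.4.6 under Python 3.11.15, and plotted in matplotlib 3.10.9. Counting intervals took the largest weight of a column, those between the RNA-IPs leaving out the shared input, and the code was tested on simulated data. A change of 2-fold was marked among mature miRNAs at a mean signal of at least 20. Names were the 4 arms, neighbours in input level, miRNAs of the same seed, the 3 nearest in ratios, same-chromosome miRNAs and cell type markers (miR-126 and miR-142 arms matched without the letter a). Of the mature names, 470 (Ago2) and 473 (Sfpq) were in the RefSeq table. The members and lists were chosen with earlier results of these data known. Alternatives were share of signal, centring, pseudocounts of 1 and 10, other minimums and the input of the other table.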

Additional observations from a re-analysis of the deposited data

How the results depend on the processing

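No paired analysis was possible because each group has 1 pooled column, which carries no replicate number, and for the same reason no library could be left out. Scaling moved the ratios of the arms, and scaling and the minimum signal moved the counts of miRNAs past 2-fold. The authors' scaling puts the median mature miRNA at 0.49 (Ago2) and 0.44 (Sfpq). The mean log2 ratio of the guides was 0.26 with Ago2 and 0.62 with Sfpq. With Ago2 it became -0.17 by share of all signal, -0.38 by share of miRNA signal and -0.23 when centred on the median miRNA. In the same order it became -0.0104, -0.20 and 0.18 with Sfpq. The Ago2 mean hides a difference, as miR-221-3p was at 0.17, -0.04 and 0.10 and miR-222-3p at -0.50, -0.71 and -0.57. The mean of the passengers went from -1.14 with Ago2 to -1.57, -1.78 and -1.63, and from -0.69 with Sfpq to -1.32, -1.51 and -1.13. Sfpq over Ago2 went from a mean of 0.36 to 0.16, 0.18 and 0.41 for the guides. For the passengers it went from 0.45 to 0.25 and 0.27 by the shares. Pseudocounts and the input of the other table moved no ratio of arms or hairpins beyond its counting interval. By share of miRNA signal the miRNAs past 2-fold were 19 higher and 60 lower with Ago2, 20 and 84 with Sfpq, and 41 lower in Sfpq over Ago2, where 18 against 24 were higher. Without a minimum 67 of 454 were lower and 107 higher with Ago2, and 81 of 447 lower and 103 higher with Sfpq. In Sfpq over Ago2 55 of 436 were then higher and 46 lower. At a mean of at least 100, 17 of 209 were lower and 52 higher with Ago2, and 23 of 204 lower and 52 higher with Sfpq. In Sfpq over Ago2 11 of 202 were then higher and 14 lower. At a mean of at least 20 the numbers tested were 302, 297 and 289, so these counts move partly with the number tested. Counting limits the 5p arms, and the spread between libraries is unknown for all.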

Other observations

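The hairpins of miR-221 and miR-222 lie on the X chromosome, and their arms made up most of the signal of miRNAs placed there alone. Other miRNAs with a further hairpin elsewhere, or a name not in the RefSeq table, were left out whatever their level. The share below is therefore not that of all miRNA signal from this chromosome. Of the 59 mature miRNAs of the Ago2 table whose hairpins are on this chromosome alone in the RefSeq table or that are arms of these hairpins, the 4 arms held 91.3% of the input signal, with 59.4% for miR-221-3p and 31.6% for miR-222-3p. Next came miR-98-5p, a member of the let-7 family, with an input signal of 61319, then miR-1198-5p with 4868 and miR-351-5p with 2937. Their log2 ratios to input were 0.98, 0.93 and 0.71 with Ago2 and 1.32, 0.65 and 0.35 with Sfpq. Over the X-linked miRNAs other than these arms at a mean of at least 20, the median log2 ratio was 0.50 with Ago2 (25 miRNAs) and 0.19 with Sfpq (24 miRNAs), against 0.49 and 0.44 over all mature miRNAs. In Sfpq over Ago2 the median of 24 was -0.35, with 0 of them 2-fold or more higher and 3 lower, while the background shares are 8.30% each.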
